A study of Mus musculus with 6 samples.

Results

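The genes described here are the Polycomb and trithorax regulators of Hox chromatin, a set of 44 genes chosen by their symbols for what their proteins do. No measured value served as a criterion, but the set was chosen with earlier results of these data known. Of the 44, 42 were rows of the deposited expression table, among 12065 genes in all, and Phf19 and Cbx7 are not analysed here. Every row of the table has 2.00 CPM (the authors' read counts scaled to library size) or more in at least 3 of the libraries, so all 42 of these rows passed this level. They had 16 reads (Pcgf5) or more in every library. RNA came from the distal tips of mouse limb buds, as 6 libraries that each pooled the tips of 2 embryos. The 3 overexpressing pools, called Meis2 pools here, came from embryos of the genotype HoxB6CreER;R26Meis2a-IRES-EYFP/Meis2a-IRES-EYFP, and the 3 control pools from embryos with R26Meis2a-IRES-EYFP/Meis2a-IRES-EYFP alone. Both groups thus carried 2 copies of the conditional Meis2a transgene in the Rosa26 locus, and their mothers received 0.8 mg of 4-hydroxy-tamoxifen at embryonic day 8.3. Recombination depended on a tamoxifen-activated Cre under HoxB6 control, and the controls had no Cre, so an effect of Cre itself cannot be told apart from one of Meis2. Each genotype had 1 pool at 37, 1 at 38 and 1 at 39 somites, which are replicates 1, 2 and 3, so replicate number and stage are the same thing. The labels give neither fore- nor hindlimb.

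Polycomb group proteins keep genes silent through chromatin. The complex PRC2 places a repressive methyl mark on a histone tail, PRC1 attaches ubiquitin to another histone and compacts the fibre, and the trithorax group with its partners works in the opposite direction by placing activating methyl marks. In the limb bud the Hoxa and Hoxd clusters are classic targets of this system, since their genes are released from silencing in a spatial order from the shoulder end to the digit end.

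The depth was 7622698 to 15395447 reads per library. Meis2, which checks the labels, stood at 16.6 ± 3.61 CPM in controls and 34.3 ± 6.62 CPM in Meis2 pools (SD, n = 3 each), a ratio of 2.07. All 14 limb mesenchyme markers sought, such as Prrx1 and Msx1, were present in every library, the lowest at 16.7 CPM. Ectoderm markers were below the controls for 21 of 21 genes (9 called by limma, as defined in the next paragraph), summing in the Meis2 pools to 636 to 699 CPM against 885 to 933 CPM. Erythroid markers were above the controls for 13 of 13 (3 called), summing to 4401 to 5230.0 against 2577 to 3759 CPM, and endothelial markers for 13 of 14 (1 called), summing to 339 to 354 against 269 to 308 CPM. Every row had 2.00 CPM or more in at least 3 libraries, so no marker measured here could be at 0 in all. Ahsp, also sought as an erythroid marker, was not among the 13 measured. The part of these cell types in the values that follow was not tested. In tissue RNA of this kind, fewer cells of a type and less RNA per cell cannot be told apart.

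The genotypes were compared to ask whether raised Meis2 goes along with a change in the Polycomb and trithorax machinery. None of the 42 genes passed the test. With limma on log2(CPM + 1), at a Benjamini-Hochberg adjusted p under 0.05 over all 12065 genes, 0 of 42 were higher and 0 lower, where 1.47% of all genes were called (0.787% higher, 0.680% lower). The smallest adjusted p among the 42 was 0.173, that of Hdac1. On the recovered reads edgeR called 0 of 42 and DESeq2 0 of 42. At an unadjusted p under 0.05, limma gave 10 of the 42 genes (23.8%), against 15.9% of all genes, edgeR gave 10 and DESeq2 9. The 10 under limma were 5 with a positive difference (Aebp2, Pcgf2, Cbx2, Cbx6, Kdm2b), where 8.12% of all genes had such a p and sign, and 5 with a negative one (Eed, Mtf2, Rnf2, Bmi1, Hdac1), against 7.77%.

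The difference is given throughout as Meis2 minus control on the log2 scale. It ran from -0.28 (Hdac1) to 0.28 (Pcgf1), with a median of 0.02 over the 42 genes against -0.00 over all genes, and 26 were above 0 and 16 below. Under quantile scaling Asxl2, Pcgf3, Rbbp4 and Rbbp5, whose differences were within 1 SE of 0, had the other sign. The median size of the difference, ignoring its sign, was 0.11 against 0.10 over all genes. The median standard error (SE) was 0.07 against 0.09 over all genes. The 95% interval of 39 of the 42 differences lay wholly within 0.5 of 0, which is a 1.41-fold change of CPM + 1. Those of Pcgf1, Pcgf5 and Phc2, named after their values were seen, reached beyond it. All 42 intervals excluded a 2-fold change of CPM + 1 in either direction. For genes of low level the added 1 shrinks the difference. Pcgf5 was at 0.14 here and 0.21 with edgeR, and Pcgf1 at 0.28 and 0.34. The outermost bounds were -0.48 (Hdac1) and 0.59 (Pcgf1). In 11 of the 42 genes (26.2%) the 3 pools of one genotype did not overlap the 3 of the other, against 20.7% of all genes. The Meis2 pools were the higher ones for 5 of the 11 and the lower ones for 6, where all genes had 10.4% each way.

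**Figure D1:**
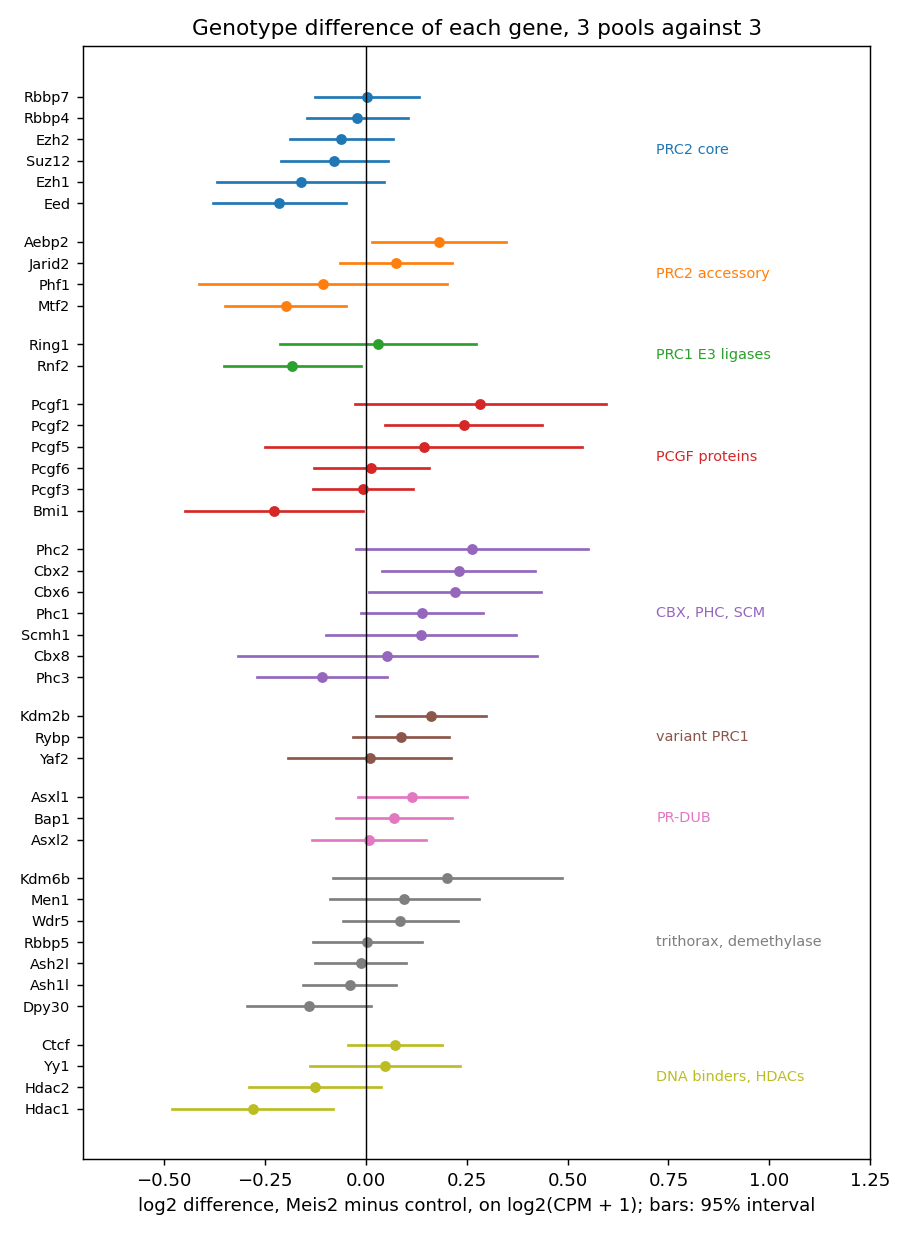
The log2 difference (Meis2 minus control, on log2(CPM + 1)) of each of the 42 genes is plotted with its 95% interval from limma, 3 pools against 3, grouped by role. All points lie between -0.28 and 0.28, 32 of the 42 intervals include 0, and none passed an adjusted p of 0.05.

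The core of PRC2 comprises the methyltransferases Ezh2 and Ezh1, the scaffold Suz12, the mark-reading subunit Eed, and the histone chaperones Rbbp4 and Rbbp7. Of these 6, 0 were called, and their differences ran from -0.21 to 0.00, with 1 above 0 and 5 below, of which Rbbp4 was above 0 under quantile scaling. Ezh2 stood at 290.0, 313 and 320.2 CPM in control replicates 1 to 3 and 298, 286 and 302 CPM in Meis2 replicates 1 to 3. The groups overlapped, and the 3 Meis2 pools spanned a narrower range than the controls. Its difference was -0.06 (SE 0.06, 95% interval -0.19 to 0.07, limma adjusted p = 0.631). Suz12 measured 192, 218 and 212 CPM in the controls and 197, 194 and 198 CPM in the Meis2 pools. Control replicate 1 was the lowest of the 6 pools, so the groups overlapped here too, and the difference was -0.08 (SE 0.06, 95% interval -0.21 to 0.06, limma adjusted p = 0.545). Eed had 87.4, 91.4 and 85.8 CPM in the controls and 84.2, 71.1 and 73.1 CPM in the Meis2 pools. Every Meis2 pool lay below every control pool, with replicates 2 and 3 lowest. Its difference of -0.21 (SE 0.07, 95% interval -0.38 to -0.05, limma adjusted p = 0.205) was the largest of the PRC2 core and did not pass. Ezh1, the paralogue typical of resting cells, had 21.6, 22.4 and 25.4 CPM in the controls and 19.7, 20.2 and 21.7 CPM in the Meis2 pools, with groups that overlapped at one pool of each. Its difference was -0.16 (SE 0.09, 95% interval -0.37 to 0.05, limma adjusted p = 0.427). Rbbp4 and Rbbp7, which also serve histone deacetylase complexes, were at -0.02 and 0.00.

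Levels can be set side by side between genes only per length, so CPM were divided by transcript length in kb. The length was that of each gene's longest protein-coding transcript in GENCODE M21, called its longest transcript here. For a gene of the table without one, the longest transcript of any kind was taken. Ezh2 then stood at 110.5 ± 5.68 CPM per kb in controls against 5.50 ± 0.475 for Ezh1 (SD, n = 3). The ratio of Ezh2 to Ezh1 was 20.1 ± 1.04 in the control pools and 21.7 ± 0.940 in the Meis2 pools (SD, n = 3 each). Suz12 and Eed were closer to each other, at 47.4 ± 3.06 and 42.7 ± 1.41 CPM per kb in controls. Among all 42 genes the mean over the 6 pools ran from 0.307 (Pcgf5) to 165 (Rbbp4) CPM per kb, with a median of 25.9. On the CPM scale 34 of the 42 lay above the median gene of the table, whose mean was 32.8 CPM.

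**Figure D2:**
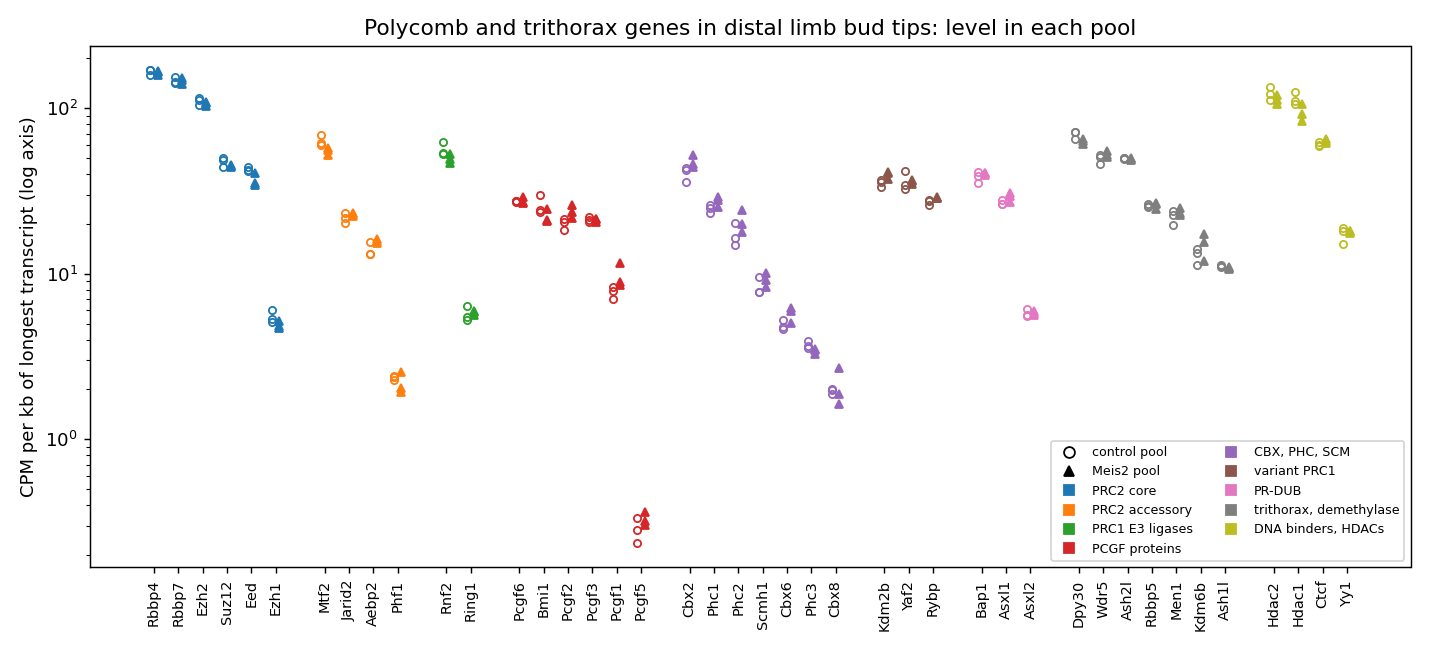
The level of each gene in CPM per kb of its longest transcript, on a log axis, is shown for the 3 control pools (open circles) and the 3 Meis2 pools (filled triangles), by role and in falling order within each role. The spread between genes, from Pcgf5 at 0.307 to Rbbp4 at 165 CPM per kb on average, is far wider than the spread between pools of 1 gene.

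PRC2 accessory proteins steer the complex to its targets. Mtf2, a Polycomb-like protein that recruits PRC2 to CpG islands, had 245, 280.0 and 249 CPM in control replicates 1 to 3 and 234, 212 and 226 CPM in Meis2 replicates 1 to 3. Its Meis2 pools were all below the controls, and control replicate 2 was the highest. The difference was -0.20 (SE 0.07, 95% interval -0.35 to -0.05, limma adjusted p = 0.198). Aebp2, a zinc finger subunit that stimulates PRC2, measured 77.7, 91.9 and 78.6 CPM in the controls and 93.7, 90.8 and 96.7 CPM in the Meis2 pools. Control replicate 2 reached into the range of the Meis2 pools, and the other 2 controls lay below it. Its difference was 0.18 (SE 0.07, 95% interval 0.02 to 0.35, limma adjusted p = 0.275). Jarid2, which helps PRC2 to bind, was at 0.08. Phf1, another Polycomb-like protein, was expressed low, with 6.06, 6.02 and 5.75 CPM in the controls and 4.86, 5.18 and 6.40 CPM in the Meis2 pools, and its groups overlapped (difference -0.11, SE 0.14). Of the 4 measured accessory genes 2 were above 0 and 2 below, and 0 were called.

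The ubiquitin ligases of PRC1 are Rnf2 (Ring1b) and Ring1. Rnf2 had 169.6, 199.95 and 172 CPM in control replicates 1 to 3 and 169, 149 and 158 CPM in Meis2 replicates 1 to 3. The Meis2 pools were below the controls by a margin of less than 1 CPM at replicate 1, and control replicate 2 stood well above the rest. Its difference was -0.18 (SE 0.08, 95% interval -0.35 to -0.01, limma adjusted p = 0.288). Ring1 had 10.7, 11.1 and 12.9 CPM in the controls and 12.0, 11.4 and 12.0 CPM in the Meis2 pools, with groups that overlapped and a difference of 0.03 (SE 0.11, 95% interval -0.21 to 0.27, limma adjusted p = 0.916). Per kb, Rnf2 stood at 56.4 ± 5.27 CPM per kb in controls and Ring1 at 5.69 ± 0.588 (SD, n = 3).

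PCGF proteins pair with the ligase and set the type of PRC1. Bmi1 and Pcgf2 (Mel18) mark the canonical complexes that carry a CBX protein. Bmi1 had 87.8, 108 and 84.7 CPM in control replicates 1 to 3 and 88.1, 75.6 and 74.7 CPM in Meis2 replicates 1 to 3, and Pcgf2 had 53.4, 45.5 and 50.8 CPM in the controls and 54.0, 64.7 and 59.0 CPM in the Meis2 pools. Bmi1 was highest in control replicate 2 and its Meis2 replicate 1 lay inside the control range, whereas Pcgf2 was lowest in control replicate 2 and its Meis2 pools were all above the controls. The differences were -0.23 (SE 0.10, 95% interval -0.45 to -0.01, limma adjusted p = 0.303) for Bmi1 and 0.24 (SE 0.09, 95% interval 0.05 to 0.44, limma adjusted p = 0.219) for Pcgf2. The ratio of Pcgf2 to Bmi1 per kb, computed after these values were seen, was 0.786 ± 0.153 in the control pools and 1.09 ± 0.182 in the Meis2 pools (SD, n = 3 each), and the groups came closest at replicate 1, with 0.880 and 0.886. Of the PCGF proteins of variant complexes, Pcgf3 and Pcgf6 were at -0.01 and 0.01. Pcgf1, the partner of Kdm2b, was at 0.28 (SE 0.14) and Pcgf5 at 0.14 (SE 0.18). Both were expressed low, with 7.09 ± 0.569 and 1.83 ± 0.320 CPM in controls. Of the 6 PCGF genes 0 were called.

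The other subunits of canonical PRC1 are the CBX proteins, which bind the PRC2 mark, the PHC proteins, which form polymers, and Scmh1. Of the 7 measured, 6 were above 0 and 1 below, with a median of 0.14, and 0 were called. Cbx2 measured 165, 137 and 161 CPM in control replicates 1 to 3 and 168, 198 and 176 CPM in Meis2 replicates 1 to 3. All Meis2 pools were above all controls, control replicate 2 was the lowest pool and Meis2 replicate 2 the highest. The difference was 0.23 (SE 0.09, 95% interval 0.04 to 0.42, limma adjusted p = 0.232). Cbx6 had 27.0, 27.8 and 30.3 CPM in the controls and 29.3, 36.3 and 34.5 CPM in the Meis2 pools, and Meis2 replicate 1 lay inside the control range. Its difference was 0.22 (SE 0.10, 95% interval 0.01 to 0.43, limma adjusted p = 0.298). Cbx8 was at 0.05 (SE 0.17). Per kb in controls, Cbx2 stood at 40.5 ± 3.96, Cbx6 at 4.89 ± 0.296 and Cbx8 at 1.95 ± 0.0709 CPM per kb, so Cbx2 was the most abundant of the 3 CBX genes measured. Phc1, Phc2 and Scmh1 were at 0.14, 0.26 and 0.14, and Phc3 at -0.11.

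Variant PRC1 holds Rybp or Yaf2 in place of a CBX protein, and Kdm2b brings 1 such complex to unmethylated CpG islands. Kdm2b had 186, 173 and 190.1 CPM in control replicates 1 to 3 and 194, 209 and 212 CPM in Meis2 replicates 1 to 3. Its Meis2 pools were all above the controls, and the difference was 0.16 (SE 0.06, 95% interval 0.03 to 0.30, limma adjusted p = 0.240). Rybp had 118, 125 and 123 CPM in the controls and 131, 129 and 129 CPM in the Meis2 pools, also without overlap, with a difference of 0.09 (SE 0.05, 95% interval -0.03 to 0.21, limma adjusted p = 0.452). Yaf2 was at 0.01. The deubiquitinase complex PR-DUB removes the PRC1 mark. Its catalytic subunit Bap1 had 142, 123 and 134 CPM in the controls and 137, 141 and 141 CPM in the Meis2 pools, where control replicate 1 was the highest pool and control replicate 2 the lowest, and the difference was 0.07 (SE 0.06, 95% interval -0.07 to 0.21, limma adjusted p = 0.616). The cofactor Asxl1 had 185, 185 and 194 CPM in the controls and 189.8, 214 and 207 CPM in the Meis2 pools, with Meis2 replicate 1 inside the control range and a difference of 0.12 (SE 0.06, 95% interval -0.02 to 0.25, limma adjusted p = 0.385). Asxl2 was at 0.01. None of these 6 genes was called.

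On the activating side, Wdr5, Rbbp5, Ash2l and Dpy30 form the core shared by the trithorax-type methyltransferases, Men1 (menin) belongs to the complexes of the MLL kind, Ash1l is a methyltransferase of its own, and Kdm6b is a demethylase that removes the PRC2 mark. Of these 7 genes, 4 were above 0 and 3 below, and 0 were called. Kdm6b had 93.4, 75.2 and 88.9 CPM in control replicates 1 to 3 and 79.9, 116 and 103 CPM in Meis2 replicates 1 to 3. Meis2 replicate 1 lay inside the control range, and Meis2 replicate 2 was the highest and control replicate 2 the lowest. The difference was 0.20 (SE 0.13, 95% interval -0.08 to 0.49, limma adjusted p = 0.465). Dpy30 had 51.5, 57.0 and 56.5 CPM in the controls and 50.0, 48.0 and 51.3 CPM in the Meis2 pools, and every Meis2 pool was below every control pool by a small margin. Its difference was -0.14 (SE 0.07, 95% interval -0.29 to 0.01, limma adjusted p = 0.356). Wdr5, Men1, Rbbp5, Ash2l and Ash1l were at 0.09, 0.10, 0.00, -0.01 and -0.04. Ash2l was the steadiest of these, with a range of 162 to 166 CPM over the 6 pools.

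The last group holds DNA-binding proteins and histone deacetylases that act on the same chromatin. Yy1, the mammalian relative of the fly Polycomb recruiter Pho, had 93.0, 117 and 112 CPM in control replicates 1 to 3 and 109, 112 and 111 CPM in Meis2 replicates 1 to 3. Control replicate 1 was lowest and the 3 Meis2 pools lay inside the control range, with a difference of 0.05 (SE 0.08, 95% interval -0.14 to 0.23, limma adjusted p = 0.804). Ctcf, the insulator protein that bounds Hox chromatin domains, was at 0.07. Hdac2 had 366, 436 and 399 CPM in the controls and 391, 345 and 363 CPM in the Meis2 pools, with overlapping groups and a difference of -0.13 (SE 0.07, 95% interval -0.29 to 0.04, limma adjusted p = 0.437). Hdac1 had 216, 255 and 224 CPM in the controls and 188, 171 and 215 CPM in the Meis2 pools. All its Meis2 pools were below the controls, the closest being Meis2 replicate 3 and control replicate 1, and its difference of -0.28 (SE 0.09, 95% interval -0.48 to -0.08, limma adjusted p = 0.173) was the lowest of all 42.

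Hdac1 has a near-identical copy in the table, between which the counting could split reads. Gm10093 aligned to Hdac1 over 1444 bases at 99.4% identity, and it had 51.3, 17.6 and 55.2 CPM in control replicates 1 to 3 and 81.4, 84.3 and 55.0 CPM in the Meis2 pools. It was lowest where Hdac1 was highest, in control replicate 2, and highest where Hdac1 was lowest, in Meis2 replicate 2. The sum of both was 273 ± 6.21 CPM in controls and 265 ± 8.12 CPM in Meis2 pools (SD, n = 3 each). The summed difference was -0.05 on the log2 scale, against -0.28 for Hdac1 alone (exact two-sided permutation test of the sum, p = 0.3, where 0.1 is the smallest p that 3 pools against 3 allow). The level of Hdac1 by itself is therefore uncertain in these files. Kdm2b has a copy of 615 aligned bases, Gm12397, at 3.95 to 9.83 CPM, and their summed difference was 0.17 against 0.16 for Kdm2b alone. Bmi1, Pcgf1, Rbbp4, Rbbp7 and Rybp also matched other transcripts at 97% identity or more, none of them a gene of the table, and Ash1l matched part of Dap3, whose exons overlap it on the other strand. In all, 15 of the 42 genes share exon bases with a gene on the opposite strand in M21, 8 of them with a gene of the table, and the counting is not stated to use strand.

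**Figure D3:**
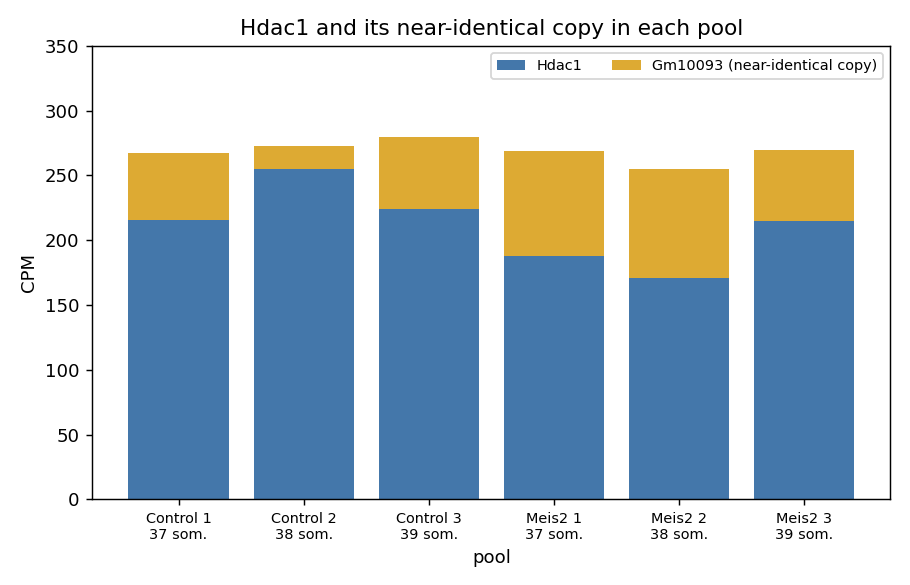
Bars show the CPM of Hdac1 (blue) in each of the 6 pools with the CPM of its near-identical copy Gm10093 (yellow) stacked on top. The stacked total lies between 255 and 279.7 CPM, while Hdac1 alone runs from 171 to 255 CPM.

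The values by pool had a common shape. In 30 of the 42 genes the difference between the genotypes was largest at 38 somites, in 6 at 37 and in 6 at 39. It was largest at 38 somites for 9 of the 10 genes with an unadjusted limma p under 0.05, a p that these pools enter. The median size of the difference over the 42 was 0.19 at 38 somites against 0.07 at 37 and 0.10 at 39. These counts were not made over all genes, so they show nothing particular to the 42. Over 11747 genes, those with more than 48.2% G and C in their transcript had a median difference of 0.12 at 38 somites. Those with less had -0.16. At 37 somites the medians were -0.03 and 0.04, and at 39 somites 0.03 and -0.04. Each stage has 1 pool per genotype, so these are values with no test. For Cbx2 the differences were 0.03 at 37, 0.53 at 38 and 0.13 at 39 somites, and for Mtf2 -0.06 at 37, -0.40 at 38 and -0.13 at 39 somites. Bmi1 had 0.00 at 37, -0.51 at 38 and -0.18 at 39 somites. Without the 2 pools at 38 somites, a comparison chosen after the data were seen, 1 of the 42 genes had an unadjusted p under 0.05, that of Aebp2 (difference 0.28), against 8.70% of all genes, and 0 were called, against 0.365%. The share over all genes was thus lower as well than the 15.9% with all pools, in a fit of 2 pools against 2. Aebp2 was the exception among the 10, with 0.27 at 37, -0.02 at 38 and 0.30 at 39 somites.

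The sign of the difference went with the base composition of the transcript. The share of G and C (GC share) in the longest M21 transcript ran from 38.2% for Mtf2 to 60.7% for Ring1, with a median of 48.2%. Of the 21 genes above that median, 17 were higher in the Meis2 pools and 4 lower, with a median difference of 0.10. Of the 21 genes below it, 9 were higher and 12 lower, with a median of -0.02. The 6 CBX, PHC and SCM genes above 0 had GC shares from 53.1% (Phc1) to 60.4% (Phc2), and Phc3, below 0, had 43.8%. Across the 42 genes, which share the same 6 libraries and are not independent replicates, the GC share and the difference had a Pearson r of 0.51 and a Spearman rho of 0.52. Transcript length had an r of 0.13 with the difference. The same split was seen in the table as a whole. Of 7011 genes above that GC share 62.3% were higher, and of 4736 genes below it 31.9%, with an r of 0.18 and a rho of 0.34 over 11747 genes. These figures are descriptions and show nothing particular to the Polycomb and trithorax genes.

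Coding stretches of 90 bases show the contrast in composition, from Mtf2 and Rnf2 on the low side and Cbx2 and Phc2 on the high side, picked after their values were seen. Each is the in-frame stretch inside 1 exon whose GC share is nearest to that of its whole transcript, read 5′ to 3′ on the coding strand from GENCODE M21 transcripts (GRCm38), with every G and C in capitals. The Mtf2 stretch covers coding bases 97 to 186, in exon 2 of 15 of a gene on chromosome 5. That of Rnf2 covers bases 148 to 237, in exon 4 of 8, on chromosome 1. The Cbx2 stretch covers bases 316 to 405, in exon 5 of 5, on chromosome 11, and the Phc2 stretch bases 226 to 315, in exon 3 of 15, on chromosome 4.
Mtf2: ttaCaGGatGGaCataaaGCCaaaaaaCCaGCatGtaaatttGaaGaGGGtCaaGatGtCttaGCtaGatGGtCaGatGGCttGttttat
Rnf2: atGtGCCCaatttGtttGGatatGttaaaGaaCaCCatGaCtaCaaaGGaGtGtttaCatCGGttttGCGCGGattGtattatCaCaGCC
Cbx2: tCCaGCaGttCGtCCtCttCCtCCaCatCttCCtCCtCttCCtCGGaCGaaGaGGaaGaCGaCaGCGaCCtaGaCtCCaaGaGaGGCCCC
Phc2: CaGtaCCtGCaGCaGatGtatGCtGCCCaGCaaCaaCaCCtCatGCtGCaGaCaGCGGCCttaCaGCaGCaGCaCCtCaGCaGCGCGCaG
The capitals make up 37.8% of the Mtf2 stretch and 40.0% of that of Rnf2, against 57.8% for Cbx2 and 60.0% for Phc2. Mtf2 and Rnf2 had differences of -0.20 and -0.18, and Cbx2 and Phc2 of 0.23 and 0.26.

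Single pools differed in the same respect. The r between the GC share and a gene's deviation from its own mean over the 6 pools was 0.22, -0.73 and -0.15 in control replicates 1 to 3 and -0.45, 0.58 and 0.44 in Meis2 replicates 1 to 3, over the 42 genes. Control replicate 2 and Meis2 replicate 2 thus lay furthest apart, in opposite directions. Over 11747 genes the r was -0.39 in control replicate 2 and 0.32 in Meis2 replicate 2, and between -0.11 and 0.16 in the other 4 pools. By stage the r of the GC share with the genotype difference was -0.40 at 37, 0.68 at 38 and 0.37 at 39 somites over the 42 genes. Over 11747 genes the r was -0.12, 0.40 and 0.11. Without the pools at 38 somites it was 0.06 over the 42 genes and -0.01 over 11747. That fit averages the stages 37 and 39, whose r had opposite signs, so a value near 0 does not mean that either stage had none. Whether base composition or the genotype accounts for the differences at 38 somites was not tested.

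**Figure D4:**
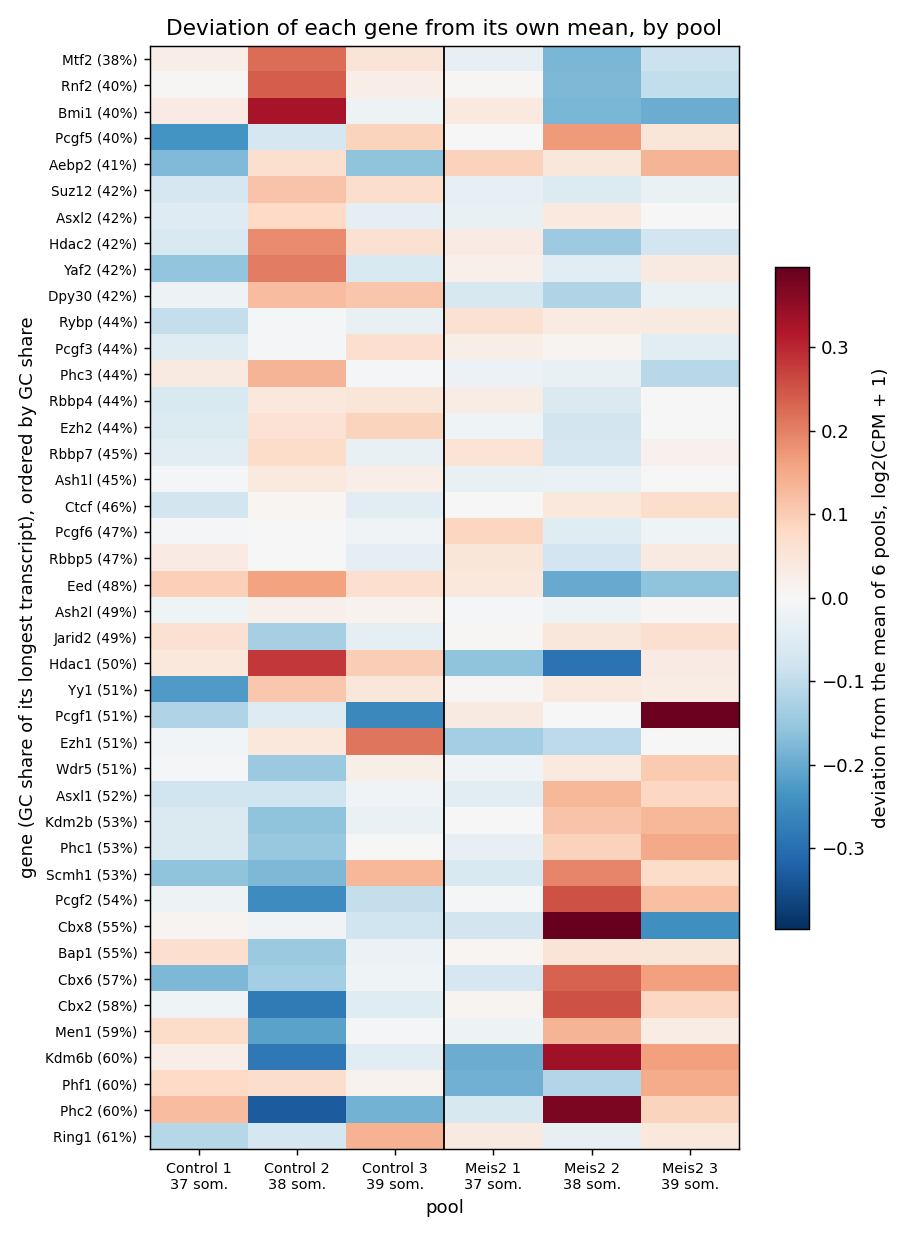
Colours give the deviation of each gene from its own mean over the 6 pools, in log2(CPM + 1), red above and blue below, with the 42 genes ordered by the GC share of their longest transcript (in brackets). Control replicate 2 is mostly red in the GC-poor upper rows and mostly blue in the GC-rich lower rows, and Meis2 replicate 2 is mostly the reverse, with r of -0.73 and 0.58.

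A fit was added after the data were seen in which each pool was corrected for GC share by a smooth curve over 11747 genes. It called 310 genes, or 2.64% of those tested, and 1 of the 42. The 1 was Aebp2, which went from 0.18 to 0.25 (SE 0.05, limma adjusted p = 0.0376) and whose adjusted p over all alternatives ran from 0.0215 to 0.510. In CPM as deposited, control replicates 1 and 3 lay below all 3 Meis2 pools and control replicate 2 among them. The GC share of Aebp2 was 40.9%, so it was a GC-poor gene that was higher in the Meis2 pools. The correction moved GC-poor genes upward in general. Over all genes below the median GC share of the 42, the median difference went from -0.055 to -0.009. How much of the rise of Aebp2 comes from this general shift was not tested. The 10 genes with an unadjusted p under 0.05 all kept their sign, and 9 of them, all but Cbx6, had such a p again. With Rybp that made 10 of the 42, against 17.1% of all genes in that fit. Some differences became smaller, Mtf2 from -0.20 to -0.11, Rnf2 from -0.18 to -0.10 and Cbx2 from 0.23 to 0.15. Eed was at -0.21 before and -0.21 after, and Hdac1 at -0.28 and -0.28. Their GC shares of 47.8% and 50.0% lie near the median of 49.9% over all genes. A correction by GC share is small there, so their unchanged values are no test of these 2 differences. The Hdac1 value also carries the doubt from its copy Gm10093. The r with GC share after correction was 0.16.

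**Figure D5:**
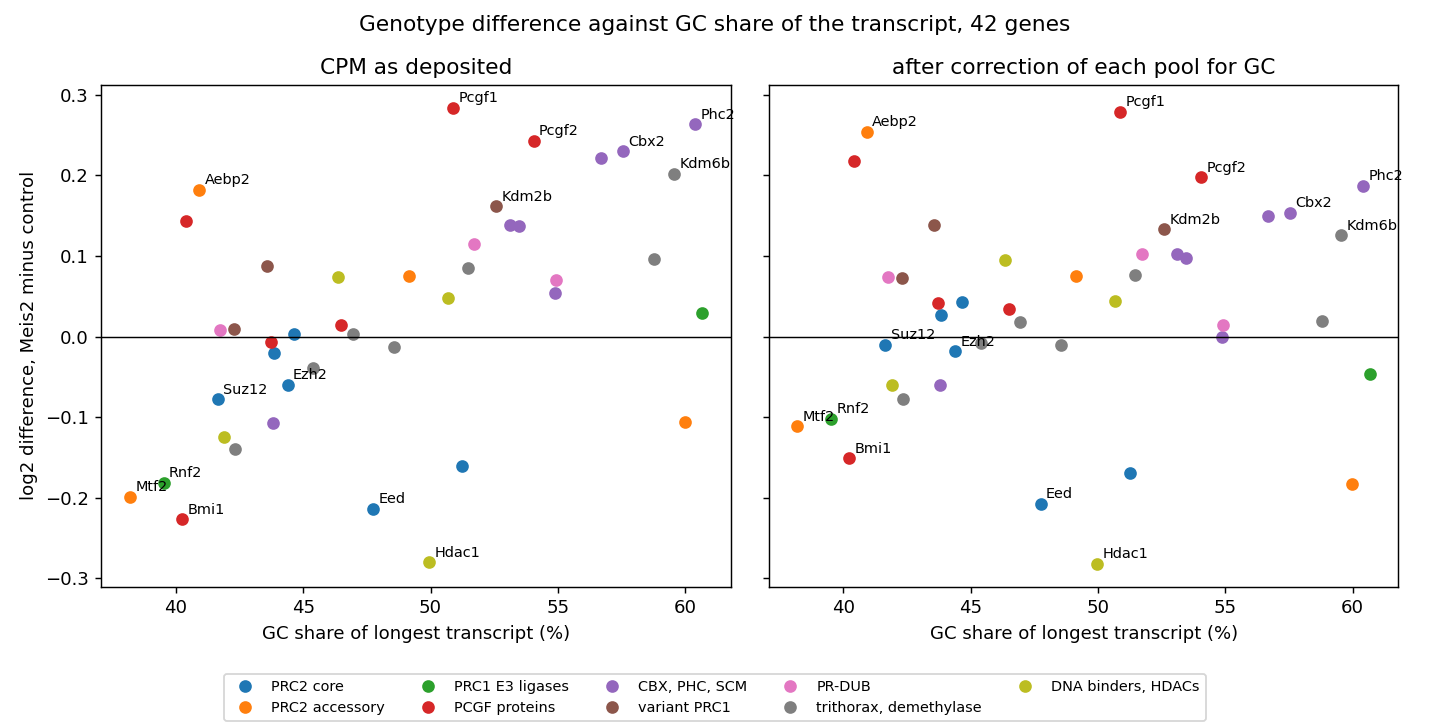
The log2 difference of each of the 42 genes is plotted against the GC share of its longest transcript, for CPM as deposited (left) and after correction of each pool for GC share (right), with 1 point per gene coloured by role. The points rise from left to right as deposited (r = 0.51) and less so after the correction (r = 0.16). Eed and Hdac1, whose GC shares lie near the median of all genes, stay near -0.21 and -0.28.

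The second comparison asked whether the 42 genes change with stage, from 37 to 39 somites, in a fit with genotype and somite number. None passed. With limma 0 of the 42 had a slope at an adjusted p under 0.05, where 0.356% of all genes did, and at an unadjusted p under 0.05 it was 0 of 42 against 6.28% of all genes. Both edgeR and DESeq2 called 0 of the 42. The slopes ran from -0.07 (Bmi1) to 0.11 (Scmh1) per somite on the log2 scale, with a median of 0.02, and all 42 intervals at 95% lay within 0.5 of 0 per somite. The smallest p of any member was that of Cbx6, at 0.10 (SE 0.05) per somite (limma adjusted p = 0.888). Ezh2, Suz12 and Eed had slopes of 0.04 (SE 0.04), 0.04 (SE 0.04) and -0.06 (SE 0.04). Of the genes with the smallest slope p in the other roles and of the core, Ezh1 was at 0.09, Phf1 and Yy1 at 0.07 each, Ring1 at 0.06, Kdm2b and Dpy30 at 0.04 each, Asxl1 at 0.05 and Bmi1 at -0.07. Over the same pools 4 of 10 genes at the 5′ side of the Hoxa and Hoxd clusters rose with stage, Hoxd13 at 0.46 (SE 0.04, limma adjusted p = 0.00177), Hoxa13 at 0.47 (adjusted p = 0.0159), Hoxd12 at 0.33 (adjusted p = 0.0213) and Evx2 at 0.80 (adjusted p = 0.00340) per somite. With robust eBayes without a trend, or without the genotype term, no gene of the table had a called slope, these 4 included. A test of whether the slope differed between genotypes called 0 of the 42 and 0 of all genes, and at an unadjusted p under 0.05 it gave 0 of the 42 against 1.99% of all genes. That test has 2 residual degrees of freedom.

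Within the set, the likeness of patterns over the 6 pools was measured as Pearson's r on log2(CPM + 1), as a description. Ezh2 was most like Ash2l (r = 0.96), Dpy30 (0.92) and Suz12 (0.90), and Suz12 most like Ash2l (0.93), Dpy30 (0.91) and Ezh2 (0.90). Eed was most like Mtf2 (0.90), Rnf2 (0.89) and Bmi1 (0.89). Spearman's rho for these pairs ran from 0.66 (Suz12 with Dpy30) to 0.94, with n = 6 pools each. They are the highest r of each gene with any other member, and how high such values run for other genes was not computed. Ash2l ranged only from 162 to 166 CPM. Eed, Mtf2, Rnf2 and Bmi1 were all highest in control replicate 2, but so were Suz12, Dpy30 and Ash2l. The GC shares of Mtf2, Rnf2 and Bmi1 were 38.2%, 39.5% and 40.2%, and those of Suz12 and Dpy30 were 41.6% and 42.3%. Eed, Ezh2 and Ash2l had 47.8%, 44.4% and 48.6%.

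Other genes of the same machinery gave no call either. Of 31 further Polycomb-related genes, such as the partners of variant PRC1, 0 were called in either direction by limma and 5 had an unadjusted p under 0.05 (1 above 0 and 4 below), near the 15.9% of all genes, with a median difference of 0.02. The smallest p was that of L3mbtl2, a subunit of the Pcgf6 complex, with 35.2 ± 2.64 CPM in controls and 42.8 ± 1.46 CPM in Meis2 pools (SD, n = 3 each; difference 0.28, limma adjusted p = 0.130). Of 40 further trithorax-related genes, among them the MLL methyltransferases and SWI/SNF subunits, 0 were called. An unadjusted limma p under 0.05 was found for 2 of them, below that share of all genes. Their median difference was 0.04, and 31 were above 0, where 50.0% of all genes were. The median GC share of these 40 was 50.9%, against 49.9% over all genes, and whether GC share has a part in this count was not tested. Ncoa6, a coactivator in MLL complexes, had the smallest p of the 40 (difference 0.17, limma adjusted p = 0.220). Of 24 partners of the deacetylases and of cohesin, 0 were called and 1 had an unadjusted p under 0.05, also below the 15.9% of all genes. It was Mbd2, a reader of methylated DNA, at -0.18 (limma adjusted p = 0.306).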

How the data were processed

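Per the labels, polyA RNA of pooled embryos was made into TruSeq RNA v2 libraries. Per the submitters' processing notes the authors used cutadapt 1.2.1, RSEM 1.17 and edgeR with genome build NCBIM37, and deposited CPM. The CPM match trimmed-mean (TMM) effective library sizes recomputed from the table. The authors' filter on low genes is not given in the sources used here. Every deposited value was a whole multiple of 1 step per library (100% within 0.001), which gave whole reads. The pools are separate embryos, and 3 per genotype limit the precision.

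For the genotype difference, limma 3.58.1 under R 4.3.3 (eBayes with a trend) was fitted on log2(CPM + 1), two-sided, over 12065 genes, with genotype as the only term. Stage slopes came from genotype and somite number, and the interaction from their product. The alternatives were other pseudocounts, scalings and filters, edgeR 4.0.16 and DESeq2 1.42.0 on the recovered reads, and pools left out. GC share, length, overlaps and copies (blastn 2.17.0, at 97% identity or more) come from GENCODE M21, a later build than the authors', so no coordinates are given. All 42 genes were found in it.

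The set and the lists were chosen with earlier results of these data known. Values in every pool are given for Ezh2, Eed and Suz12 and, in each role, for the 2 genes with the smallest genotype p and the 1 with the smallest slope p, and from each further list the gene with the smallest p. Other genes singled out were chosen after their values were seen.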

Additional observations from a re-analysis of the deposited data

How the results depend on the processing

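The count of 0 called among the 42 genes held under 17 of 19 alternatives for the genotype difference and under all 16 for the slope. The 2 exceptions were the GC correction and the GC correction with a replicate block, each with 1 called, Aebp2 (limma adjusted p = 0.0376 and 0.0215, with a highest value of 0.510 over the alternatives). The median difference of the 42 ran from -0.00 to 0.04. Over all genes the count of 177 for the genotype became 290 with DESeq2, 340 in a fit that also held somite number, 86 with robust eBayes without a trend, 310 with the GC correction, 606 with that correction and the replicate block, and 44 without both pools at 38 somites. It ran from 56 (without Meis2 replicate 2) to 162 with 1 pool left out, with 90 without control replicate 2, 64 without control replicate 3 and 115 without Meis2 replicate 1. The 43 slopes called over all genes became 74 with DESeq2, 76 with the GC correction, 0 with robust eBayes without a trend and 0 without the genotype term, and ran from 1 (without Meis2 replicate 3) to 69 (without control replicate 2) with 1 pool left out, with 26 without control replicate 1 and 17 without control replicate 3. The causes of these shifts were not tested. A replicate block gave 258 over all genes and 0 of the 42. Same-numbered pools are matched by stage, a match that the main genotype fit did not use. Their deviations from the genotype means correlated at 0.0328, -0.152 and 0.381 for replicates 1 to 3. The fit that also held somite number called 0 of the 42 as well. Of 800 genotype differences of single genes under an alternative, 37 (13 genes) had another sign than in the report, 35 of them of genes within 1 SE of 0 there. The other 2 were Kdm6b (-0.00698) and Men1 (-0.0292) without both pools at 38 somites. Of 671 slopes 35 (24 genes) had another sign, 33 of them within 1 SE of 0, so no sign of such a gene is firm. In the other 2, with 1 pool left out, that of Yy1 ran from -0.00238 (without control replicate 1) to 0.114, and that of Hdac1 from -0.00458 (without Meis2 replicate 3) to 0.125. Pcgf5, with 16 reads in its lowest pool, was the most limited by depth.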

Other observations

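Over the 11747 genes with a transcript, those above a GC share of 48.2% had a median deviation of -0.07 in control replicate 2 and 0.06 in Meis2 replicate 2, on log2(CPM + 1), and genes below it had 0.09 and -0.07. The genotype difference at 38 somites had a median of 0.12 in the GC-rich and -0.16 in the GC-poor genes, against -0.03 and 0.04 at 37 somites and 0.03 and -0.04 at 39. Among the 42 genes the medians at 37, 38 and 39 somites were 0.01, 0.21 and 0.10 for the GC-rich and 0.04, -0.13 and -0.05 for the GC-poor ones. Each of these stage values rests on 1 pool per genotype and was not tested.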
